A study of Canis lupus familiaris with 29 samples.

Results

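The genes described here encode enzymes and carriers of mitochondrial fatty acid oxidation (FAO) and of the breakdown of the branched-chain amino acids (BCAAs) leucine, isoleucine and valine. A list of 36 such genes was drawn up by pathway and chosen by their differences between tumors and normal adrenal medulla in these same samples, which were known beforehand. Of the 36, 33 were found by name among the 30951 genes counted, and BCKDHA, HADHB and ACAA2 were not found by name and are not analysed here. The 33 genes are called members below, 16 of them for BCAAs and 17 for FAO. All 33 passed the filter on low counts in each comparison. Because the list was selected on values of tumor against normal tissue, those comparisons, for all tumors and for each tumor group, describe the members and support nothing about them as a set.

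The study sequenced messenger RNA of canine pheochromocytomas and paragangliomas (PPGLs), which are tumors of chromaffin cells, and of normal adrenal medullas (NAMs) to find genes that differ between them. There were 10 NAMs, 7 PPGLs in group 1 and 12 in group 2. The authors drew both tumor groups from a principal component analysis of the same samples, so a difference between the groups describes them. NAMs came from healthy research dogs and were snap-frozen, while PPGLs came from client-owned dogs of several clinics after surgery or euthanasia and were snap-frozen or kept in RNAlater. Tissue, origin of the dogs and sampling therefore go together and cannot be told apart. Treatment, genetic changes, age, sex and breed of the dogs were not used here. Totals were 19258054 to 35918182 counts per sample in NAMs, 18493540 to 31919833 in group 1 and 18208718 to 24569667 in group 2. A floor of 3 counts corresponds to 0.0835 to 0.156 CPM in a NAM or 0.0940 to 0.165 CPM in a PPGL, and it covers counting error only. Every member was above this floor in every sample.

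Long-chain fatty acids enter mitochondria bound to carnitine, and each round of oxidation then takes a dehydrogenation, a hydration, another dehydrogenation and a cleavage that releases acetyl-CoA. The electrons of the first step pass through the electron transfer flavoprotein to the respiratory chain. BCAAs first lose their amino group, are then decarboxylated by the branched-chain ketoacid dehydrogenase complex, and continue on separate branches that end in acetyl-CoA, acetoacetate or, through propionyl-CoA, succinyl-CoA. In the adrenal gland, chromaffin cells of the medulla make catecholamines, and the surrounding cortex makes steroid hormones, in part inside mitochondria.

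Most members were lower in PPGLs than in NAMs. At an adjusted p below 0.05, 28 of the 33 members were lower and 0 were higher by edgeR's quasi-likelihood test, where 15.2% of all 14766 genes tested were lower and 22.3% were higher. At an unadjusted p below 0.05, 29 members were lower and 1 was higher. Such counts show no difference from other genes where the share of all genes is not set beside them. DESeq2's Wald test also gave 28 lower and 0 higher, and the Mann-Whitney U-test gave 29 lower and 0 higher. The median log2 fold change (FC) of members was -0.97, beside 0.13 over all genes tested, and no member had a log2 FC below -3. For BCAA members the median was -0.88, with 15 of 16 lower, and for FAO members it was -1.09, with 13 of 17 lower. The members that were not called were IVD, SLC25A20, ACADL, ECI1 and DECR1. In 4 members, MCCC2, ACADVL, ACADS and HADHA, every PPGL lay below every NAM, which was the case in 0.481% of all genes tested. In bulk tissue, fewer cells of a type and less RNA per cell cannot be told apart.

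**Figure D1:**
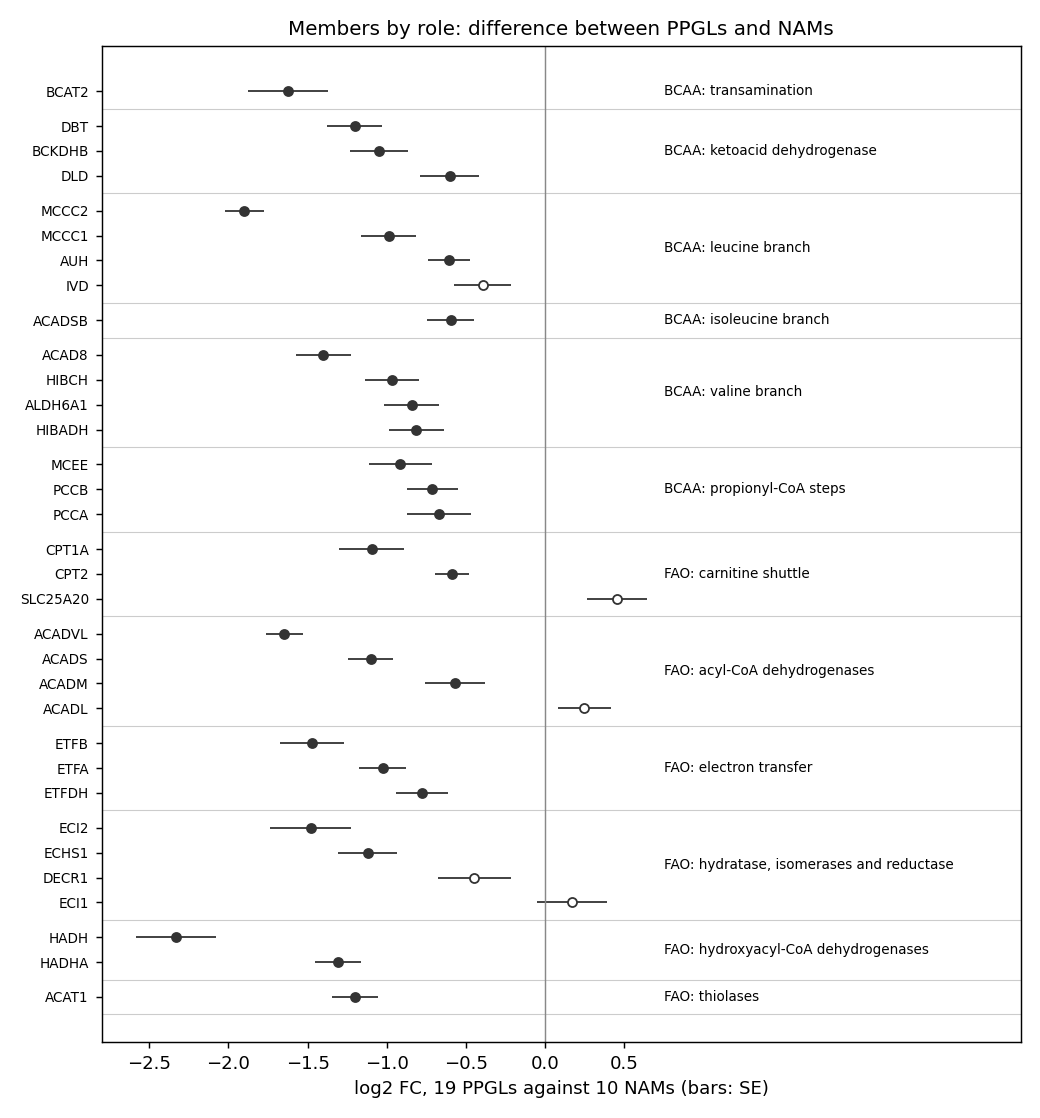
Each point is the log2 FC of a member in 19 PPGLs against 10 NAMs, with its SE as a bar, grouped by role, and filled where edgeR's adjusted p was below 0.05. The 28 filled points lie to the left of 0, from ACADM at -0.57 to HADH at -2.33, and SLC25A20, ACADL and ECI1 lie to the right of 0 with open points.

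The breakdown of BCAAs starts with BCAT2, the mitochondrial aminotransferase (ENSCAFG00000003901, chromosome 1, 107538465 to 107549234, in CanFam3.1 as for all positions here). Levels are given as CPM after scaling by edgeR's TMM method. BCAT2 had 40.5 to 145 CPM (median 89.2) in NAMs, 8.06 to 35.7 CPM (median 18.8) in group 1 and 17.3 to 76.8 CPM (median 31.9) in group 2. The 7 tumors of group 1 and 10 of the 12 tumors of group 2 lay below every NAM, and group 2 replicates 2 and 10 lay within the NAM range. The log2 FC in PPGLs against NAMs was -1.62 (SE 0.25, adjusted p = 1.96e-05).

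The branched-chain ketoacid dehydrogenase complex commits the BCAAs to breakdown. DBT, its transacylase core (ENSCAFG00000020011, chromosome 6, 49753323 to 49805882), had 16.5 to 50.1 CPM (median 39.2) in NAMs, 9.40 to 14.9 CPM (median 11.7) in group 1 and 9.82 to 24.2 CPM (median 17.8) in group 2. All 7 tumors of group 1 but only 4 of 12 in group 2 lay below every NAM, since NAM replicate 4 was as low as 16.5 CPM. Its log2 FC was -1.20 (SE 0.17, adjusted p = 6.97e-06). BCKDHB, the beta subunit of the decarboxylase, had a log2 FC of -1.05 (SE 0.18, adjusted p = 7.78e-05), and 7 of the 19 PPGLs lay below every NAM. DLD, a dehydrogenase that this complex shares with the pyruvate and oxoglutarate dehydrogenases, had a log2 FC of -0.60 (SE 0.19, adjusted p = 0.0124). BCKDHA, the partner of BCKDHB, is the member of the complex not analysed here.

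On the leucine branch, MCCC2, the beta subunit of methylcrotonyl-CoA carboxylase (ENSCAFG00000007887, chromosome 2, 54751698 to 54823273), had 179.5 to 359 CPM (median 262) in NAMs, 51.3 to 85.6 CPM (median 73.2) in group 1 and 48.3 to 121 CPM (median 70.1) in group 2. No PPGL reached the NAM range, and the highest, group 2 replicate 10, had 120.5 CPM. The log2 FC of MCCC2 was -1.90 (SE 0.12, adjusted p = 1.08e-11). MCCC1, the biotin-carrying alpha subunit of the same enzyme, was also lower, at -0.99 (SE 0.17, adjusted p = 7.58e-05), but 4 PPGLs lay within the NAM range. AUH, the hydratase of the next step, had a log2 FC of -0.61 (SE 0.13, adjusted p = 0.000757), and 3 of the 19 PPGLs lay below every NAM. IVD, which dehydrogenates isovaleryl-CoA, did not pass the test, with 192 to 260.1 CPM (median 222) in NAMs, 104 to 286 CPM (median 144) in group 1 and 65.9 to 287 CPM (median 163) in group 2. For IVD, 13 PPGLs lay below every NAM, 3 lay above every NAM, and the log2 FC was -0.39 (SE 0.18, adjusted p = 0.0829). The Mann-Whitney U-test called IVD lower, with adjusted p = 0.0345. By edgeR, IVD passed as lower without group 1 replicates 4 or 5 or group 2 replicate 2, and with the replicate number as a block.

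The valine branch had 4 members, all lower in PPGLs. ACAD8, which dehydrogenates isobutyryl-CoA (ENSCAFG00000009762, chromosome 5, 976008 to 992330), had 62.1 to 132 CPM (median 104) in NAMs, 17.3 to 44.0 CPM (median 28.4) in group 1 and 26.4 to 74.9 CPM (median 35.6) in group 2. Only group 2 replicate 10 among the 19 PPGLs reached the NAM range. Its log2 FC was -1.40 (SE 0.17, adjusted p = 8.51e-07). HIBCH, the hydrolase that frees hydroxyisobutyrate from CoA, had a log2 FC of -0.97 (SE 0.17, adjusted p = 9.31e-05). HIBADH and ALDH6A1, the dehydrogenases that follow, had log2 FCs of -0.81 and -0.84. ACADSB, the dehydrogenase of the isoleucine branch, had a log2 FC of -0.60 (SE 0.15, adjusted p = 0.00225), and 13 of the 19 PPGLs lay below every NAM.

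Propionyl-CoA from valine and isoleucine is carboxylated by PCCA and PCCB and epimerized by MCEE. All 3 were lower in PPGLs, with log2 FCs of -0.67 for PCCA, -0.71 for PCCB and -0.91 for MCEE. Their groups overlapped, with 7, 13 and 9 of the 19 PPGLs below every NAM. MMUT, the mutase that completes this route and is outside the list of members, had 88.1 to 138 CPM (median 113) in NAMs, 76.6 to 145 CPM (median 93.8) in group 1 and 72.6 to 144 CPM (median 88.5) in group 2, and its log2 FC of -0.18 (SE 0.12, adjusted p = 0.256) did not pass the test.

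CPT1A, which makes the carnitine esters of long-chain fatty acids and is the regulated entry step of FAO (ENSCAFG00000010757, chromosome 18, 49136691 to 49190117), had 349 to 782 CPM (median 532) in NAMs, 66.0 to 444 CPM (median 206) in group 1 and 158 to 429 CPM (median 258) in group 2. Group 1 replicate 2 and group 2 replicate 12 lay within the NAM range, and the other 17 PPGLs lay below it. The log2 FC of CPT1A was -1.09 (SE 0.20, adjusted p = 0.000157). CPT2, which returns the fatty acids to CoA inside the mitochondrion, was lower by less, at -0.59 (SE 0.11, adjusted p = 0.000108), with 18 of the 19 PPGLs below every NAM. SLC25A20, the carrier between both enzymes, had 27.2 to 47.8 CPM (median 32.8) in NAMs, 31.8 to 73.8 CPM (median 44.2) in group 1 and 17.2 to 89.1 CPM (median 47.7) in group 2. For SLC25A20, 9 PPGLs lay above every NAM and 2 lay below, and its log2 FC of 0.45 (SE 0.19, adjusted p = 0.0618) did not pass the test. With library size in place of TMM SLC25A20 passed, at 0.52, and it also passed without group 1 replicate 1, group 2 replicates 4, 9, 10 or 11, or NAM replicate 8.

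The acyl-CoA dehydrogenases take the first oxidation step, each for another chain length. ACADVL, for very long chains (ENSCAFG00000016016, chromosome 5, 32186502 to 32327990), had 363 to 816 CPM (median 527) in NAMs, 107 to 219 CPM (median 165) in group 1 and 129 to 248 CPM (median 172) in group 2. The highest PPGL lay below the lowest NAM, and the log2 FC was -1.65 (SE 0.12, adjusted p = 1.02e-10). ACADVL overlaps DLG4 and PLSCR3 on the other strand, and since the strand setting of the counting was not stated, its value is uncertain to that extent. ACADS, for short chains, separated the groups as well, with 64.3 to 97.1 CPM (median 76.9) in NAMs, 26.7 to 47.6 CPM (median 41.7) in group 1 and 19.9 to 52.8 CPM (median 34.8) in group 2. Its log2 FC was -1.10 (SE 0.14, adjusted p = 1.32e-06). ACADM, for medium chains, differed less, at -0.57 (SE 0.19, adjusted p = 0.0195), and 7 of the 19 PPGLs lay below every NAM. ACADL, for long chains, had 11.6 to 20.8 CPM (median 15.9) in NAMs, 14.9 to 26.9 CPM (median 23.6) in group 1 and 7.85 to 26.6 CPM (median 17.7) in group 2, with a log2 FC of 0.25 (SE 0.17, adjusted p = 0.253) that did not pass the test.

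The electron transfer flavoprotein takes electrons from these dehydrogenases and from those of the BCAA branches. ETFB, its beta subunit (ENSCAFG00000002852, chromosome 1, 105610511 to 105628125), had 190.3 to 508 CPM (median 377) in NAMs, 38.0 to 139.7 CPM (median 109.9) in group 1 and 72.0 to 302 CPM (median 137) in group 2. Group 2 replicate 10 alone among PPGLs reached the NAM range, and the log2 FC was -1.47 (SE 0.20, adjusted p = 3.58e-06). ETFA, the alpha subunit, had a log2 FC of -1.03 (SE 0.15, adjusted p = 8.67e-06), with 11 of the 19 PPGLs below every NAM. ETFDH, which passes the electrons to ubiquinone, had a log2 FC of -0.78 (SE 0.17, adjusted p = 0.000607), with 14 PPGLs below every NAM. ETFDH overlaps PPID and C15H4orf46 on the other strand, so its counts are uncertain in the same way as those of ACADVL.

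HADH, the hydroxyacyl-CoA dehydrogenase for medium and short chains (ENSCAFG00000011216, chromosome 32, 28460193 to 28531280), had the largest difference of the 33 members. It had 179 to 776 CPM (median 531) in NAMs, 42.5 to 83.0 CPM (median 59.0) in group 1 and 77.9 to 303 CPM (median 94.7) in group 2. Of the PPGLs, 17 lay below every NAM, while group 2 replicates 2 and 10, at 212 and 303 CPM, lay above NAM replicate 4, the lowest NAM at 179 CPM. The log2 FC of HADH in PPGLs against NAMs was -2.33 (SE 0.25, adjusted p = 1.53e-07). HADHA, the alpha subunit of the trifunctional protein that handles long chains (ENSCAFG00000004267, chromosome 17, 20307226 to 20355508), had 242 to 593 CPM (median 359) in NAMs, 88.2 to 205 CPM (median 163) in group 1 and 98.0 to 187 CPM (median 138) in group 2. Every PPGL lay below every NAM for HADHA, and its log2 FC was -1.31 (SE 0.14, adjusted p = 1.75e-07). ACAT1, a thiolase that acts on acetoacetyl-CoA and on the isoleucine branch (ENSCAFG00000014570, chromosome 5, 24361301 to 24379812), had 136 to 283 CPM (median 229) in NAMs, 56.7 to 114 CPM (median 83.0) in group 1 and 61.2 to 169 CPM (median 89.7) in group 2. For ACAT1, 17 of the 19 PPGLs lay below every NAM, and the log2 FC was -1.20 (SE 0.15, adjusted p = 8.72e-07).

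The remaining FAO members hydrate, isomerize or reduce unsaturated acyl-CoAs, and they differed among themselves. ECI2, an enoyl-CoA isomerase (ENSCAFG00000009409, chromosome 35, 4342214 to 4366331), had 52.1 to 204 CPM (median 109) in NAMs, 17.2 to 83.4 CPM (median 32.2) in group 1 and 14.4 to 97.6 CPM (median 33.04) in group 2. For ECI2, 15 of the 19 PPGLs lay below every NAM, and group 1 replicate 4 and group 2 replicate 10 reached 83.4 and 97.6 CPM. The log2 FC was -1.48 (SE 0.26, adjusted p = 6.76e-05). ECI2 overlaps C35H6orf201 on the other strand and is uncertain to that extent. ECHS1, the short-chain hydratase, had a log2 FC of -1.12 (SE 0.19, adjusted p = 4.38e-05), with 15 PPGLs below every NAM. ECI1, the other isomerase, had 17.0 to 28.4 CPM (median 21.4) in NAMs, 9.22 to 39.6 CPM (median 28.5) in group 1 and 9.05 to 41.4 CPM (median 22.3) in group 2, and its log2 FC of 0.17 (SE 0.22, adjusted p = 0.584) did not pass the test. DECR1, the dienoyl-CoA reductase (ENSCAFG00000009009, chromosome 29, 35495261 to 35544955), had 41.6 to 135 CPM (median 68.2) in NAMs, 20.9 to 92.3 CPM (median 43.0) in group 1 and 26.9 to 96.0 CPM (median 55.2) in group 2. The groups of DECR1 overlapped widely, and its log2 FC of -0.45 (SE 0.23, adjusted p = 0.127) did not pass the test.

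**Figure D2:**
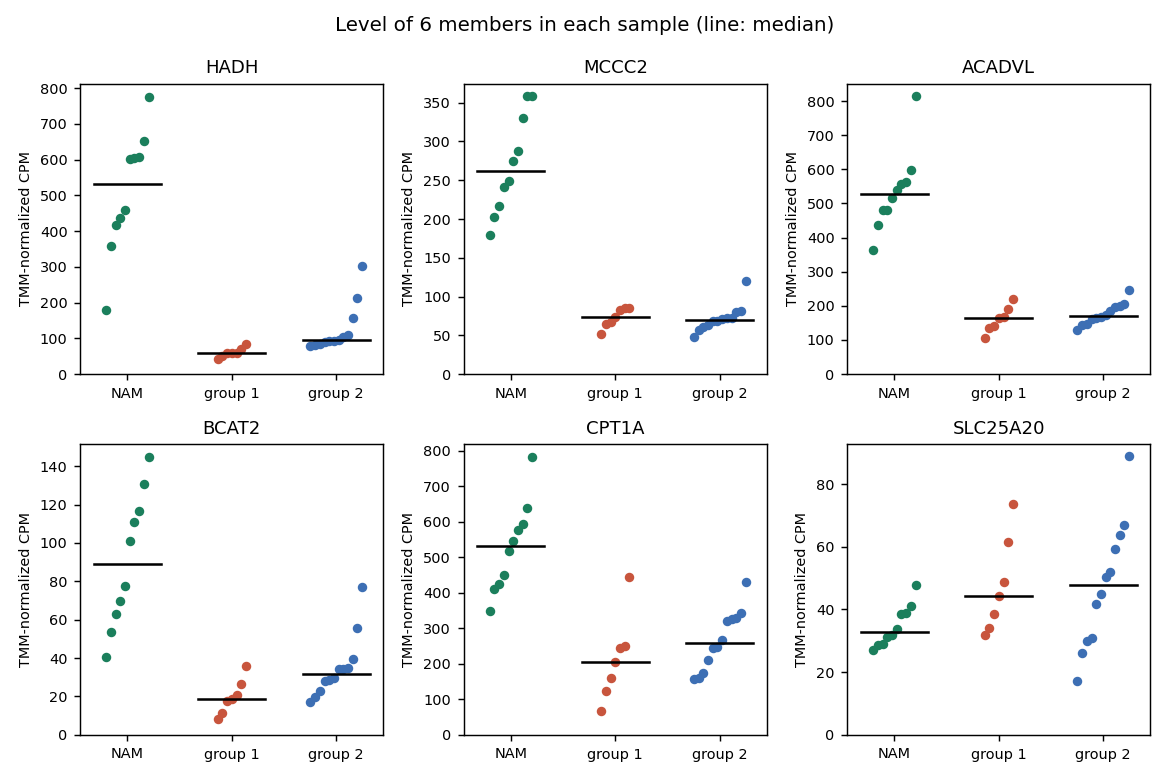
Each point is a sample's TMM-normalized CPM of HADH, MCCC2, ACADVL, BCAT2, CPT1A or SLC25A20, and the line marks the median of its group (10 NAMs, 7 group 1 and 12 group 2 tumors). For MCCC2 and ACADVL the highest PPGL, at 120.5 and 248 CPM, lies below the lowest NAM, at 179.5 and 363 CPM, while the groups of SLC25A20 overlap.

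Between genes, levels were compared as median CPM per kb of exon length. In NAMs, ECHS1 ranked first among members at 309 CPM per kb, followed by HADH at 271 and ACADVL at 165 CPM per kb. ACADL was the lowest at 5.63 CPM per kb in NAMs, and PCCA the next lowest at 17.8. ECHS1 also ranked first in both tumor groups, at 119.8 CPM per kb in group 1 and 134 in group 2, and IVD, ranked 4 in NAMs, ranked 2 in both. HADH moved from rank 2 in NAMs to rank 20 in group 1 and rank 13 in group 2. The ranks are a description of medians, with no test between neighbours.

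Summed over the 33 members, NAMs had 3657 to 8300 CPM (median 6303), group 1 had 1876 to 2969 CPM (median 2745) and group 2 had 2220 to 4081 CPM (median 2855). Among NAMs, replicate 4 had the lowest sum and lay below the NAM median in all 33 members, whereas replicate 8 had the highest sum and lay below the median in 1. Each PPGL had between 8 and 30 members below every NAM. The fewest were in group 2 replicate 10 with 8 and group 2 replicate 2 with 9, and the most were in group 1 replicate 7 with 30 and group 2 replicate 6 with 29. Those extremes on the low side came from both tumor groups. The share of all genes below every NAM in each tumor is not given here. These counts therefore do not show whether members differ from other genes in a tumor.

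A sample of adrenal medulla can hold cortex, so markers of the adrenal cortex are set beside the members. Of 9 cortex markers looked for, 8 were found and tested. In PPGLs against NAMs, 7 of the 8 were lower and 0 were higher by edgeR (8 lower and 0 higher at an unadjusted p below 0.05; 7 and 0 by DESeq2), with a median log2 FC of -3.22. Their summed level was 12626 to 61811 CPM in NAMs, 21.6 to 1135 CPM in group 1 and 201 to 31106 CPM in group 2. CYP17A1, a steroid hydroxylase and the most abundant of them in NAMs, had a median of 12299 CPM in NAMs, 1.88 CPM in group 1 and 1155 CPM in group 2. In group 1, STAR, which carries cholesterol into mitochondria, was higher than CYP17A1, with a median of 122.5 CPM. In group 1 replicates 1 and 2, STAR made up 1131 of 1135 CPM and 846 of 860 CPM of the sum. The highest sums of group 1 are therefore those of a single marker. A cortical score, the mean log2 CPM of the 8 markers, was 9.28 to 11.45 in NAMs, -1.38 to 3.83 in group 1 and 3.09 to 10.30 in group 2. Markers of chromaffin cells were abundant in the NAMs as well, with a summed level of 16311 to 93027 CPM over 10 genes. The NAMs labelled as medulla thus held RNA of both cortex and medulla.

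Adding the cortical score as a covariate uses the same values that the list was selected on and gives a description as well. In that fit, 15 members were lower and 0 were higher in PPGLs against NAMs by edgeR, where 7.69% of all genes tested were lower. At an unadjusted p below 0.05, 20 were lower and 0 were higher in this fit. The median log2 FC of members was -0.66, beside 0.06 over all genes. The 15 were BCAT2, BCKDHB, DBT, MCCC2, ACAD8, HIBCH, CPT2, ACADVL, ACADS, ETFA, ETFB, ECI2, HADH, HADHA and ACAT1. MCCC2 had a log2 FC of -1.77 (adjusted p = 3.45e-07) in this fit, HADH -1.53 (adjusted p = 0.000191) and ACADVL -1.41 (adjusted p = 4.97e-06). CPT1A no longer passed, at -0.66 (adjusted p = 0.105), and ETFDH had -0.27 (adjusted p = 0.321). ECI1 changed sign, from 0.17 to -0.0021. The score and the tissue largely coincide, since only group 2 replicate 10 of the 19 PPGLs lay in the NAM range of the score, and the fit separates them with few samples. That tumor had a score of 10.30 and a mean member level of 6.53 on the log2 scale, within the NAM range of 6.30 to 7.42. NAM replicates 10 and 1, with scores of 10.13 and 10.40, had mean levels of 6.72 and 7.18. NAM replicate 4, with a score of 9.35, had the lowest mean level, 6.30. A single tumor cannot tell score and tissue apart, and this difference was not tested.

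The slopes among the 10 NAMs use NAM values that were part of the selection of the list, so they are a description too. Among these NAMs, 22 of the 33 members rose with the cortical score and 0 fell by edgeR, where 9.07% of the 13169 genes tested rose. At an unadjusted p below 0.05, 29 rose and 0 fell, and by DESeq2 26 rose and 0 fell. The median slope of members was 0.41 on the log2 scale per unit of score, beside 0.01 over all genes. BCAT2 had the steepest slope, at 0.64 (SE 0.15, adjusted p = 0.0175). ECI2 had a slope of 0.63 (SE 0.19, adjusted p = 0.0400), and DECR1, which did not differ between the tissues by the test, had 0.62 (SE 0.13, adjusted p = 0.0126). CPT1A rose with a slope of 0.44 (SE 0.07, adjusted p = 0.00585). All 3 members of electron transfer rose, as did 3 of the 4 of the valine branch. The 11 that did not pass were BCKDHB, DBT, IVD, MCCC2, ACADSB, ALDH6A1, PCCA, SLC25A20, CPT2, ACADL and ECI1. MCCC2, which separated all PPGLs from all NAMs, was among them, with a slope of 0.31 (SE 0.11, adjusted p = 0.0687). By DESeq2, BCKDHB, MCCC2, ACADSB and PCCA did pass. MCCC2 also passed by edgeR with the score from STAR and NR5A1 only, and without NAM replicate 5.

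Other genes moved with the score in NAMs too. Of the 16 genes of the TCA cycle and pyruvate dehydrogenase tested, 9 rose and 0 fell (unadjusted 10 and 0; DESeq2 10 and 0). Of the 17 mitochondrial import, folding and membrane genes tested, 7 rose and 0 fell (unadjusted 13 and 0; DESeq2 11 and 0). Of the 10 chromaffin markers, 0 rose and 5 fell (unadjusted 0 and 6; DESeq2 0 and 6), with a median slope of -0.68, where 1489 of all 13169 genes tested fell. A slope does not say which cells the members' RNA came from.

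The calls among NAMs rested on few samples. Without NAM replicates 4 and 5, the farthest from the median score, 0 members rose by edgeR, although 24 did at an unadjusted p below 0.05 and the median slope was 0.42. In the same 8 NAMs, 65 of all genes rose in place of 1195. Without NAM replicate 4 alone 9 members and 282 of all 13183 genes tested rose, and without NAM replicate 8 alone 8 members and 264 of 13270 genes rose. The slope of ECI2 was 0.31 without NAM replicates 4 and 5, and it no longer passed in 7 of the 10 fits that leave out a single NAM, nor without a filter. With library size in place of TMM, 17 members rose, and the split over all genes moved from 1195 rising and 1489 falling to 555 rising and 2165 falling.

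Among the 19 PPGLs, with group as a term in the fit, 0 members rose or fell with the cortical score by edgeR, where 0.232% of all 14666 genes tested rose. At an unadjusted p below 0.05, 11 members rose and 0 fell, and the share of all genes at that cut is not given here. DESeq2 called 3 rising, AUH, HIBCH and MCCC1, and 0 falling, where 117 of all genes rose and 130 fell. The median slope of members was 0.09, beside -0.01 over all genes. BCAT2 had a slope of 0.08 (SE 0.07, adjusted p = 0.786) and CPT1A one of 0.10 (SE 0.08, adjusted p = 0.748). The difference between the slopes in NAMs and in PPGLs was not tested.

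**Figure D3:**
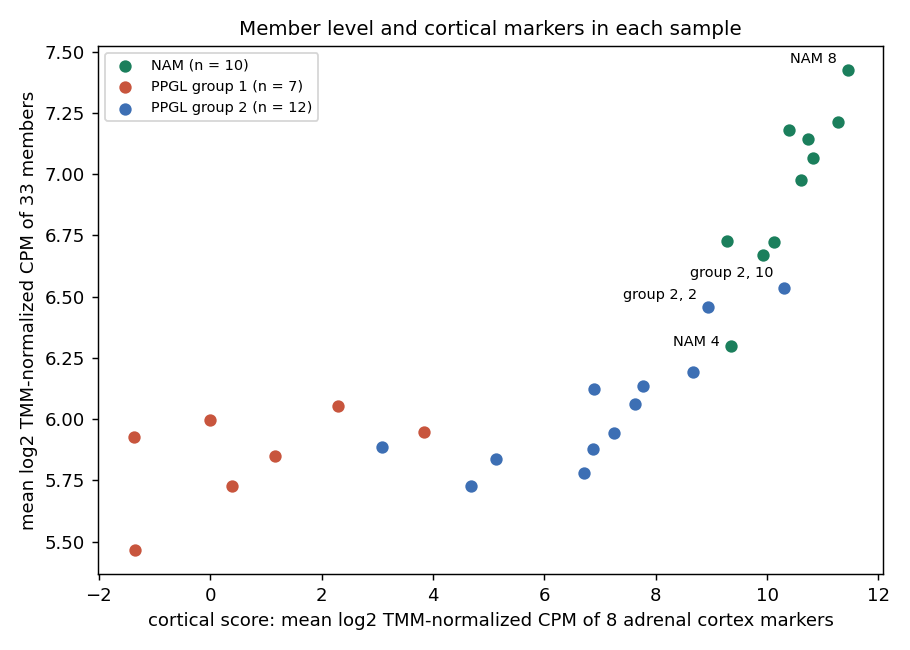
Each point is a sample, with its cortical score (mean log2 TMM-normalized CPM of 8 adrenal cortex markers) on the x axis and its member level (mean of log2 TMM-normalized CPM over the 33 members) on the y axis. NAMs span 6.30 to 7.42 on the y axis, group 1 5.47 to 6.06 and group 2 5.73 to 6.53, and group 2 replicate 10 is the only PPGL with a score in the NAM range.

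Between the tumor groups, HADH was the only member to pass the threshold of an adjusted p below 0.1, and it was lower in group 1 than in group 2. HADH did not pass with the replicate number as a block, although samples that share a number are different animals. By edgeR, 1 of the 33 members was lower and 0 were higher in group 1, where 2.95% of all 14666 genes tested were lower and 3.97% were higher. By that test, the members' share is thus close to that of all genes. At an unadjusted p below 0.05, 6 members were lower and 0 were higher, where 1244 of all genes tested were lower and 1601 were higher. DESeq2 called 4 lower, BCAT2, DBT, ETFDH and HADH, and 0 higher, where 877 of all genes were lower and 916 were higher. The Mann-Whitney U-test called 1 member lower and 0 higher, where 226 of all genes were lower and 160 were higher. The median log2 FC of members was -0.17, beside 0.04 over all genes, and the log2 FC was negative in 19 of the 33 members and in 6854 of the 14666 genes. Without group 1 replicate 7, the median of members was -0.04, and 256 genes were higher and 269 lower in place of 582 and 433.

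HADH had 42.5 to 83.0 CPM (median 59.0) in group 1 and 77.9 to 303 CPM (median 94.7) in group 2. Of the 7 tumors of group 1, 6 lay below every tumor of group 2, and group 1 replicate 7 lay within its range. The 3 highest tumors of group 2 were replicates 1, 2 and 10, which also had the 3 highest cortical scores, 8.67, 8.94 and 10.30. That match was picked after the values were seen. Among all PPGLs, with group as a term, HADH had a slope on the score of 0.15 (SE 0.06, edgeR adjusted p = 0.384). The log2 FC of HADH in group 1 against group 2 was -1.04 (SE 0.27, adjusted p = 0.0394). Once the cortical score entered as a covariate, it was 0.05 (adjusted p = 0.989), and CPT1A changed sign as well, from -0.32 to 0.27. The scores of both groups overlap only between 3.09 and 3.83, and that fit left 0 of all genes called in either direction by edgeR (0 members lower and 6 higher at an unadjusted p below 0.05). Cortical markers were lower in group 1 in 7 of 8 cases and higher in 0 (unadjusted 7 and 0; DESeq2 7 and 0), with a median log2 FC of -6.74. The part of cortical RNA in the difference of HADH cannot be told apart from the groups.

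The other members did not pass between the groups, and the first enzymes of both pathways were among them. BCAT2 had a log2 FC of -0.82 (SE 0.30, adjusted p = 0.135) and CPT1A one of -0.32 (SE 0.29, adjusted p = 0.587). Without group 1 replicate 7, BCAT2 passed, at -1.01. With a single tumor left out, CPT1A ranged from -0.60 to -0.16. DBT and ETFDH had log2 FCs of -0.57 and -0.57. ETFDH passed without group 1 replicate 1 or group 2 replicates 9 or 11, and DBT passed without group 2 replicate 6. MCCC2 and ACADS, which separated all PPGLs from all NAMs, had log2 FCs of 0.02 (SE 0.16, adjusted p = 0.959) and 0.22 (SE 0.20, adjusted p = 0.580) between the groups. A p above the threshold does not show that the groups were alike.

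Each tumor group was also set against the NAMs, and both comparisons share the same 10 NAMs. In group 1, 26 of the 33 members were lower and 0 were higher by edgeR (27 and 0 at an unadjusted p below 0.05), where 14.1% of all 15201 genes tested were lower, and the median log2 FC was -1.04. In group 2, 27 were lower and 0 were higher (28 and 1 at an unadjusted p below 0.05), where 14.5% of all genes were lower, and the median was -0.86. HADH had a log2 FC of -3.08 (SE 0.31, adjusted p = 9.78e-08) in group 1, past -3, and of -2.03 (SE 0.24, adjusted p = 1.11e-06) in group 2. BCAT2 had -2.20 in group 1 and -1.37 in group 2, and CPT1A had -1.31 and -0.99. MCCC2 had -1.90 in group 1 and -1.91 in group 2. Library size in place of TMM moved the median of all genes in group 1 by 0.11, from 0.13 to 0.24, and that of members to -0.95.

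PCCA and DLD were not called in group 1, at -0.64 (SE 0.27, adjusted p = 0.0614) and -0.32 (SE 0.23, adjusted p = 0.284), and ACADM was not called in group 2, at -0.38 (SE 0.19, adjusted p = 0.126). Between the groups themselves, their log2 FCs were 0.06, 0.48 and -0.58, with adjusted p = 0.935, 0.291 and 0.193. None of these differences between groups passed the test with all samples, and ACADM passed without group 1 replicate 3.

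Other genes of both pathways were read from a list of 66, of which 63 were found and 60 tested in PPGLs against NAMs. Of these, 17 were lower and 5 were higher by edgeR, where 15.2% of all genes tested were lower and 22.3% were higher. In the list, 18 were lower and 5 higher at an unadjusted p below 0.05 and by DESeq2, and the median log2 FC was -0.15. The lower ones were led by ACACB, which makes the malonyl-CoA that inhibits carnitine palmitoyltransferase, at -2.09 (SE 0.48, adjusted p = 0.00109), and by PDK4, a kinase that holds back pyruvate dehydrogenase, at -2.07 (SE 0.49, adjusted p = 0.00144). SLC3A2, the heavy chain of the transporter for leucine and other large amino acids, had -1.89 (SE 0.23, adjusted p = 5.79e-07). ACSL4 and ACSL3, which activate long-chain fatty acids, had log2 FCs of -1.80 and -1.73. With the score as a covariate, 9 genes of this list were lower and 2 were higher, where 1136 of 14766 genes were lower and 1380 higher. Of the listed genes named here and below, PDK4, SLC3A2 and ACSL3 stayed lower and ACSL1 and OXCT1 stayed higher.

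Higher in PPGLs were FABP3, CPT1B, PPARG, ACSL1 and OXCT1. FABP3, a fatty acid binding protein, had 1.45 to 6.49 CPM (median 3.23) in NAMs, 3.62 to 377 CPM (median 10.6) in group 1 and 1.56 to 305 CPM (median 11.3) in group 2. A few tumors of both groups reached high levels, and 14 of the 19 PPGLs lay above every NAM. Its log2 FC was 3.94 (SE 0.92, adjusted p = 0.00139). CPT1B, the muscle form of the enzyme encoded by CPT1A, had 6.08 to 25.3 CPM (median 12.2) in NAMs, 9.98 to 102 CPM (median 44.9) in group 1 and 8.91 to 72.2 CPM (median 27.0) in group 2, with a log2 FC of 1.42 (SE 0.40, adjusted p = 0.00569). CPT1B overlaps NCAPH2, so its counts are uncertain to that extent. PPARG, a lipid-responsive transcription factor, had a log2 FC of 1.22 (SE 0.23, adjusted p = 0.000216). ACSL1, another enzyme that activates long-chain fatty acids, had a log2 FC of 1.06 (SE 0.24, adjusted p = 0.00112), the opposite direction to ACSL3 and ACSL4. OXCT1, which uses ketone bodies, had a log2 FC of 0.69 (SE 0.21, adjusted p = 0.00971).

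Some further regulators of these pathways are PPARA, ESRRA, PPARGC1A, BCKDK and PPM1K, of which BCKDK passed the test. PPARA and ESRRA, nuclear receptors that drive FAO genes, had log2 FCs of 0.29 (SE 0.32, adjusted p = 0.4998) and 0.16 (SE 0.26, adjusted p = 0.660). Their coactivator PPARGC1A was low, at 1.07 CPM or less in each NAM and 1.68 CPM or less in each PPGL, and had a log2 FC of -0.14 (SE 0.56, adjusted p = 0.865). BCKDK, the kinase that switches the branched-chain ketoacid dehydrogenase complex off, was lower in PPGLs, at -0.51 (SE 0.13, adjusted p = 0.00361), and 17 of the 19 PPGLs lay below every NAM. PPM1K, the phosphatase that switches it on, had a log2 FC of 0.15 (SE 0.20, adjusted p = 0.581). The level of these RNAs says nothing of the activity of the proteins.

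Mitochondrial genes outside both pathways were read as well, and their counts stand beside the 15.2% of all genes tested that were lower in PPGLs. Of 16 genes of the TCA cycle and pyruvate dehydrogenase tested, 9 were lower and 0 were higher by edgeR (9 and 0 at an unadjusted p below 0.05; 9 and 0 by DESeq2), with a median log2 FC of -0.44. Of 17 genes of mitochondrial import, folding and membrane, 3 were lower and 1 was higher (unadjusted 3 and 3; DESeq2 3 and 1), with a median of -0.11. With the score as a covariate, 5 TCA cycle genes were lower and 0 higher, and 2 import genes were lower and 0 higher. Over all genes, that fit had 1136 lower and 1380 higher of 14766 tested. Between the tumor groups, 0 genes of either list were called by edgeR. For the TCA cycle genes 0 were lower and 2 were higher at an unadjusted p below 0.05, with 0 by DESeq2, and for the import genes 1 was lower and 1 was higher, with 0 lower and 1 higher by DESeq2.

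Some tumors had low levels of some chromaffin markers, though not of every marker of the list. TH, which starts catecholamine synthesis, was at 10.8 and 2.15 CPM in group 1 replicates 3 and 5 and at 32.3 CPM in group 2 replicate 7, against 1057 to 5971 CPM in NAMs. DDC was at 0.285 and 0.358 CPM in the same tumors of group 1. DBH was below every NAM in both, at 2562 and 2166 CPM against 4955 to 17272 CPM. SYP, a protein of secretory vesicles, was above every NAM in both, at 595 and 627 CPM against 127 to 417 CPM. The summed level of the chromaffin markers was 18116 and 10780 CPM in these tumors, against 16311 to 93027 CPM in NAMs. These genes were chosen after their values were seen. Group 1 replicate 7 had 27.1 CPM of CHGB, against 5688 to 61698 CPM in NAMs, and the highest level of dividing cell markers, 1197 CPM in sum. Group 2 replicate 11 had the highest sums of fibroblast and leukocyte markers, 25288 and 815 CPM. Without group 1 replicates 3 and 5 and group 2 replicate 10, chosen after the data were seen, and with group 2 replicate 7 kept, 28 members were lower and 0 were higher in PPGLs against NAMs by edgeR (29 and 1 at an unadjusted p below 0.05), and the median was -0.98.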

How the data were processed

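Messenger RNA of 29 canine samples was read as short single-end reads from stranded libraries. Alignment to CanFam3.1 by STAR and counting over the exons of each gene were done by the authors, and the deposited raw counts were used here as they are. The strand setting and the handling of reads with several positions were not stated. The members and all lists were chosen with earlier results of these data known.

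In R 4.3.3, edgeR 4.0.16 (with limma 3.58.1) kept genes by filterByExpr (minimum count 10, minimum total 15), scaled by TMM and tested with quasi-likelihood F tests, with p adjusted over all genes tested by the Benjamini-Hochberg method. Genes were called at an adjusted p below 0.05, or below 0.1 between PPGL groups. The same tests gave slopes on the cortical score (prior count 2) within NAMs and within PPGLs. DESeq2 1.42.0, the Mann-Whitney U-test, other scalings and filters, and fits with a block or the score as a covariate were run beside them. The scripts were tested on simulated data. Overlaps between genes were read with GenomicRanges 1.54.1, tables with the data.table package (1.17.8), and figures were drawn with matplotlib 3.10.9.

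Full values are given for the 10 called members with the largest log2 FC in PPGLs against NAMs, up to 5 between PPGL groups and 3 by slope in NAMs, and always for CPT1A, BCAT2 and, where found, BCKDHA. Of the other pathway genes, the 5 called with the largest log2 FC in each direction and PPARA, PPARGC1A, ESRRA, BCKDK, PPM1K and MMUT are named.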

Additional observations from a re-analysis of the deposited data

Results flagged for a closer look

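Each group of 4 to 10 samples was searched for a highest or lowest value far from the others by Dixon's test, on log2 CPM of the 33 members. Group 2, with 12 tumors, was not searched. Of 66 groups of values, 5 held such a sample, where chance gives about 1 in 20. The members of a sample are not independent, as NAM replicate 4 lay below the NAM median in all 33, so that share is a rough guide. Each was the lowest of its group.

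NAM replicate 4 had HADH at 7.48 (next lowest NAM 8.49) and ETFA at 7.18 (next 7.88). PPGL group 1 replicate 7 had ALDH6A1 at 5.51 (next 6.47) and PCCB at 5.93 (next 6.91). PPGL group 1 replicate 6 had HIBADH at 3.12 (next 3.83). NAM replicate 4 had a cortical score of 9.35, where the NAMs had 9.28 to 11.45, and PPGL group 1 replicate 7 had 27.1 CPM of CHGB. Left out in turn, NAM replicate 4 and PPGL group 1 replicates 6 and 7 each left 28 members lower in PPGLs against NAMs by edgeR.

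HADH was also found by the test of PPGL group 1 against group 2, where it was lower in group 1, at -1.04 on the log2 scale (edgeR adjusted p = 0.0394).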

How the results depend on the processing

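In PPGLs against NAMs, 28 or 29 members were lower under every scaling, filter, test and left-out sample. Library size gave 1 member higher (SLC25A20). With the cortical score as a covariate 15 were lower, and ECI1 was at -0.0021. Leaving out each sample in turn gave 0 to 1 higher. Over all genes, the covariate gave 1380 higher and 1136 lower in place of 3295 and 2246, and the Mann-Whitney U-test 2824 and 2920.

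Between PPGL groups 1 and 2, members lower were 4 by DESeq2, 0 with the covariate (median log2 FC of members 0.40, HADH 0.047, CPT1A 0.27) and 1 to 2 with each sample left out. Over all genes, 582 higher and 433 lower became 916 and 877 by DESeq2, 160 and 226 by the Mann-Whitney U-test, 0 and 0 with the covariate, and 256 to 733 and 269 to 485 with each sample left out. The median of members was -0.20 to -0.04 with each sample left out. The cause was not tested.

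Samples that share a replicate number are different animals. Of 24 pairs with the same number, 2 had correlations over 0.1 (-0.232 to 0.251, median -0.0132), and 4 of 48 comparisons of a sample with the other groups had its own number as the closest. With the number as a block, 0 members were lower between PPGL groups (HADH -0.86), over all genes 10 higher and 37 lower. The block gave 29 members lower in PPGLs against NAMs, adding IVD, with 2273 genes higher and 2380 lower.

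Of the slopes in NAMs, 0 members rose without the 2 samples farthest from the median score (all genes 65 rising, 144 falling in place of 1195 and 1489; with library size 555 and 2165) and 8 to 24 rose with each sample left out (all genes 264 to 1338 rising, 372 to 1531 falling). In PPGLs, DESeq2 gave 3 rising, and over all genes 117 rising and 130 falling in place of 34 and 2; 55 and 22 without a filter, 46 and 3 without the 2 farthest samples, and 24 and 1 with the score from STAR and NR5A1. Of the single members' values under alternatives that leave out no single sample, 298 kept direction and side of the threshold, 19 were weaker, 4 stronger and 3 reversed.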

Other observations

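Markers of other tissues and cell types were read for each group in PPGLs against NAMs by edgeR. Over all genes tested, 15.2% were lower and 22.3% were higher in that comparison. Dividing cell markers were higher in 5 of 6 cases (5 by DESeq2, 4 by the Mann-Whitney U-test), with a median log2 FC of 2.97, and their summed level had medians of 30.7 CPM in NAMs, 127 CPM in group 1 and 60.7 CPM in group 2. With the cortical score as a covariate, 0 of the 6 were called higher or lower, and the median was 0.92. Between PPGL groups 1 and 2, 5 of the 6 were higher in group 1 (6 by DESeq2, 0 by the Mann-Whitney U-test and 6 at an unadjusted p below 0.05). By edgeR, 3.97% of all genes tested were higher in group 1. Fibroblast markers were higher in 4 and lower in 0 of 6 cases (median 2.20), but 3 were higher and 1 lower by DESeq2, and 2 and 1 by the Mann-Whitney U-test. Endothelium markers were lower in 4 of 6 cases (median -0.79) by each of the 3 tests. Chromaffin cell markers were higher in 2 and lower in 1 of 10 cases (3 and 2 by DESeq2, 2 and 2 by the Mann-Whitney U-test).

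Hepatocyte markers were higher in 2 and lower in 3 of 5 cases (2 and 3 by DESeq2, 0 and 3 by the Mann-Whitney U-test), and their summed level was 178 to 1149 CPM in NAMs. Leukocyte markers were higher in 1 and lower in 1 of 6 cases (1 and 1 by DESeq2, 0 and 2 by the Mann-Whitney U-test). Skeletal and heart muscle markers were lower in 1 of 4 cases by each of the 3 tests. Adipocyte markers were called in 0 of 5 cases (1 higher and 0 lower at an unadjusted p below 0.05 and by DESeq2; 0 and 1 by the Mann-Whitney U-test). Kidney tubule markers were called in 0 of 2 cases (0 at an unadjusted p below 0.05, by DESeq2 and by the Mann-Whitney U-test). Schwann and sustentacular cell markers were called in 0 of 4 cases (0 higher and 1 lower at an unadjusted p below 0.05 and by DESeq2; 0 and 2 by the Mann-Whitney U-test).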
